A study of Mus musculus with 2 samples.

Results

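Catalytic subunits of PPP-family Ser/Thr protein phosphatases were examined in lists of N6-methyladenosine (m6A) sites. The sites were called from nanopore direct RNA sequencing (DRS) of mouse embryonic stem cells. The genes are Ppp1ca, Ppp1cb and Ppp1cc of PP1, Ppp2ca and Ppp2cb of PP2A, and Ppp4c, Ppp5c and Ppp6c of PP4, PP5 and PP6. A listed position was taken as a member when it lay within an exon of 1 of these 8 genes on the same strand, and each genome position and strand was counted once. This gave 176 positions of the 160430 in all 17 lists, with 11 to 37 per gene and a median of 20, while the median over all 10896 genes with a position was 13. The genes were chosen by the listings themselves, since positions of Ppp1cc and Ppp4c were known to recur across tools in the Mettl3 knock-out, so the counts of repeated sites describe that choice and support nothing.

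The embryonic stem cells were mouse 129 cells, either wild-type (WT) or with a Mettl3 knock-out (KO), and poly(A) RNA gave 1 DRS library per condition. Mettl3 is the catalytic subunit of the m6A methyltransferase. The KO was a genome edit on both alleles (CRISPR–Cas9) that removed exons 5 to 7 and left resistance genes for puromycin and hygromycin there. The tools Nanom6A, m6Anet, Tombo, MINES, Epinano and ELIGOS, which need no control sample, and xPore, which compares samples, were each represented by separate lists for WT and for KO. For Nanocompore, DiffErr and DRUMMER there was only 1 list per tool, made by comparing the libraries, and it was counted here with the WT lists. How a KO list was made with xPore, which fits both libraries together, is not stated with the lists, so a KO listing by xPore may not mean the same as one by the other tools. The lists hold positions and names, with no score, rate or coverage. The depth behind a position is therefore unknown, and a position missing from a list can be uncovered or below the cut-off of the tool. With 1 library per condition no test between conditions was possible, and intervals cover counting error only. The tools also share reads and inputs: MINES and Nanom6A start from signals that Tombo assigns, and m6Anet, xPore and Nanocompore from those of Nanopolish.

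PPP-family phosphatases remove phosphate from serine and threonine with the help of metal ions held in a strongly conserved catalytic core. The catalytic subunits are few and work on many substrates, and regulatory and scaffold subunits direct each of them to its targets. m6A is placed by the complex of Mettl3 with Mettl14 on the adenosine of RRACH (R is A or G, H is A, C or T), most often in long internal exons and around stop codons.

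The positions with the widest support carried the results below, and their surroundings are printed as 29 bases of GRCm38, 5′ to 3′ on the gene's strand, with the RRACH 5-mer in capitals and the listed adenosine in its centre. The first set holds the 8 positions that at least 5 tools listed in WT or in the comparison. It lies in 4 genes, and 5 of the 8 have GGACT (62.5%, 95% Wilson interval 30.6 to 86.3), against 44.7% of all positions with this many tools. The coding position of Ppp1cc and that of Ppp4c, both GGACT, led to the choice of genes, so this share is a description only. Where a gene has several 3′ UTR positions here, distal in a label marks the one farthest after the stop codon. In Ppp2ca it lies 1038 nt after the start of the stop codon, in a 3′ UTR of 5804 nt.
Ppp1cb, 3′ UTR, chr5:32491087-32491115, plus strand: cagatttgttaaGGACAtacttcataata
Ppp1cc, coding exon 3, chr5:122168992-122169020, plus strand: tttgtttctcggGGACTatgtggacaggg
Ppp1cc, 3′ UTR near the stop codon, chr5:122174157-122174185, plus strand: actgcctggttgGGACTtgtaacatagcg
Ppp1cc, distal 3′ UTR, chr5:122174767-122174795, plus strand: aaagtttctgttGGACTgtatggcacgcc
Ppp2ca, proximal 3′ UTR, chr11:52122084-52122112, plus strand: ttgttttcacacGGACCaaaagatgtgcc
Ppp2ca, 3′ UTR, chr11:52122242-52122270, plus strand: tgctttcttgagAGACTgcagatatagga
Ppp2ca, distal 3′ UTR, chr11:52122996-52123024, plus strand: tgtatatttcatGGACTctttaaaatgat
Ppp4c, 3′ UTR, chr7:126786041-126786069, minus strand: gccccagggtgcGGACTtgctctggagag

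Most phosphatase positions were listed in both libraries. Of the 159 positions in a WT or comparison list, 126 (79.2%, 72.3 to 84.8) were also in at least 1 KO list, against 59% of all such positions in the series. KO lists held 143 positions, of which 17 (11.9%, 7.56 to 18.2) had no WT or comparison listing, against 29.2% over the series. Without Nanom6A, the KO lists held 94 positions and the WT or comparison lists 108. At least 4 tools listed the same position in both WT and KO at 3 positions (1.89% of 159, background 0.308%), 1 each in Ppp1cc, Ppp4c and Ppp5c. A comparison list held 8 positions (5.03%, 2.57 to 9.61, background 2.45%), 4 in Ppp2ca, 3 in Ppp1cc and 1 in Ppp1cb. At least 5 tools in WT or the comparison and no KO list gave 3 positions (background 0.91%), 1 each in Ppp1cb, Ppp1cc and Ppp2ca. The genes thus held positions of both kinds, those that many tools listed only with WT and those that many tools listed in either library.

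**Figure D1:**
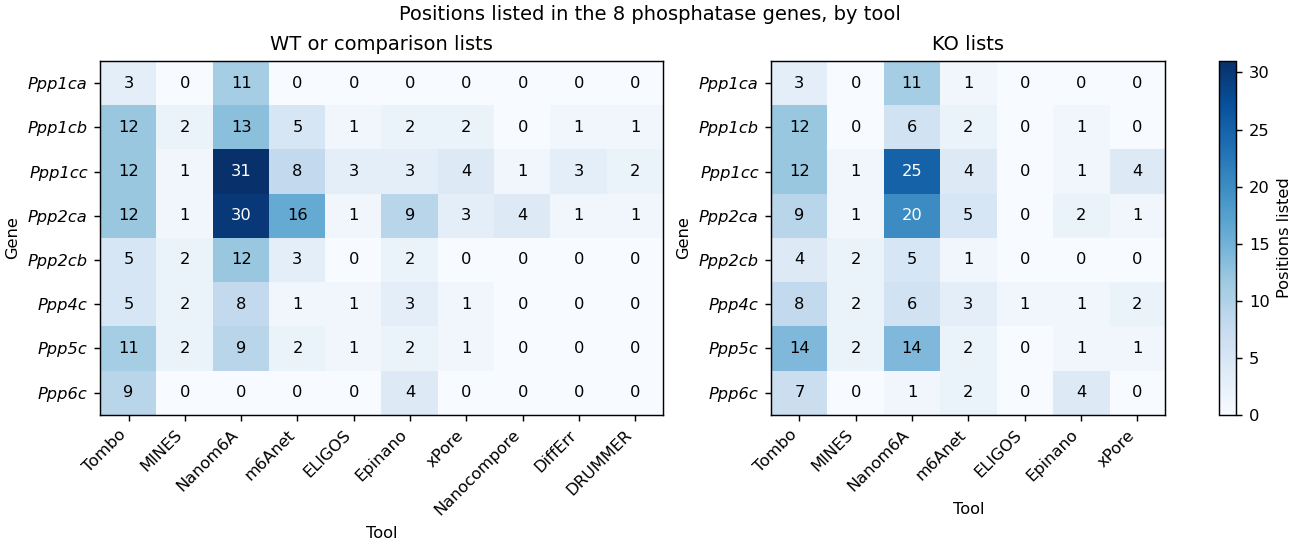
Number of phosphatase positions in each list, with genes in rows and tools in columns, for the WT or comparison lists (left) and the KO lists (right). Nanom6A and Tombo give most positions in both panels, Ppp1cc and Ppp2ca have entries from all 10 tools, and Ppp6c has none from Nanom6A in WT.

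Among the PP1 genes, the least supported was Ppp1ca (ENSMUSG00000040385, chr19:4192065-4195420, plus strand), which encodes the alpha isoform of the PP1 catalytic subunit. All 11 RRACH positions of its transcript were listed, and each was listed in WT and again in KO. Nanom6A listed all 11 in WT and all 11 in KO, and Tombo listed 3 of them in each library. The only difference between the libraries was a GGACT at position 4192245 in exon 1, which m6Anet listed in KO alone. No comparison list held a position of Ppp1ca, and no position had more than 2 tools. The 3 positions with most tools in WT, an AGACC in exon 3, an AGACA in exon 6 and an AGACC in the 3′ UTR at 4195327, were listed by Tombo and Nanom6A in both libraries.

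Ppp1cb (ENSMUSG00000014956, chr5:32458843-32517433, plus strand) encodes the beta isoform, the PP1 subunit of myosin phosphatase. It had 26 positions, 23 in WT or comparison lists and 19 in KO lists, with 16 in both. Its GGACA 45 nt after the start of the stop codon, the first sequence printed above, was listed by 9 of the 10 tools, Nanocompore being the exception, and by no tool in KO. The next position in support was a GGACA 701 nt before the stop codon, at 32480786, listed by Tombo, MINES, Nanom6A and m6Anet in WT and by Tombo in KO. The other positions had at most 2 tools in WT. Of the 37 WT listings by the 7 tools that also had a KO list, 16 (43.2%, 28.7 to 59.1) were repeated by the same tool in KO, and Nanom6A went from 13 positions to 6 while Tombo listed 12 in each library.

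Ppp1cc (ENSMUSG00000004455, chr5:122158278-122175273, plus strand) encodes the gamma isoform, which is needed for male germ cell development. All 31 RRACH positions of its transcript were listed in WT, all of them by Nanom6A, and 28 were listed in KO. Its GGACT in coding exon 3, 695 nt before the stop codon, was listed in WT by all 7 tools with a WT list, and by DiffErr and DRUMMER in the comparison. In KO the same position was listed by Tombo, MINES, Nanom6A, m6Anet, Epinano and xPore, all but ELIGOS of the 7 tools with a KO list. It was thus both in lists of differences between WT and KO and in 6 KO lists. Being in a comparison list and in at least 1 KO list is common. It held for 76.5% of comparison-list positions of the series and for 5 of the 8 in the phosphatase genes (62.5%). The GGACT 29 nt after the start of the stop codon had 8 tools in WT or the comparison, all but MINES and DRUMMER, and none in KO. The GGACT 639 nt after it had 6 tools, with DiffErr and DRUMMER among them, and m6Anet alone in KO. Of these 3 GGACT positions of 1 transcript, the coding position was repeated by 6 tools, the distal 3′ UTR position by 1 and the proximal one by none.

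The PP2A catalytic subunit is encoded by Ppp2ca and Ppp2cb, of which Ppp2ca is the main form in most tissues. Ppp2ca (ENSMUSG00000020349, chr11:52098681-52127778, plus strand) had most positions of the 8 genes, 37, all in WT or comparison lists, and 27 of them in KO. It also held 4 of the 8 comparison-list positions, and Nanocompore listed all 4. The AGACT 284 nt after the start of the stop codon was listed by 9 tools, all but MINES, and was the only phosphatase position in all 3 comparison lists. In KO, Nanom6A alone listed it. The GGACT at 1038 nt had 6 tools in WT or the comparison and none in KO. The GGACC at 126 nt had 5 tools, of which Nanom6A and xPore listed it again in KO. The fourth, a GAACT 727 nt before the stop codon, at 52113218, was listed by Nanom6A, m6Anet and Nanocompore, and by Nanom6A in KO. The listings of m6Anet went from 16 positions in WT to 5 in KO, those of Epinano from 9 to 2, and those of Nanom6A from 30 to 20.

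Ppp2cb (ENSMUSG00000009630, chr8:33599625-33619441, plus strand) had 15 positions, all in WT, and 9 of them in KO. At most 3 tools listed a position. These were a GAACT 692 nt before the stop codon and a GGACC 146 nt after its start, each listed by Nanom6A, m6Anet and Epinano in WT. The GAACT was repeated in KO by Nanom6A and m6Anet, and the GGACC by no tool. No comparison list held a Ppp2cb position. Positions listed only in KO numbered 0 in Ppp2cb, Ppp2ca, Ppp1cc and Ppp1ca, and all 17 of them lay in Ppp6c (6), Ppp4c (5), Ppp1cb (3) and Ppp5c (3).

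Ppp4c (ENSMUSG00000030697, chr7:126785866-126792496, minus strand) encodes the catalytic subunit of PP4, which acts in DNA repair and at centrosomes. It had 16 positions, 11 in WT and 15 in KO, so that more were listed in KO than in WT. Its GGACT 109 nt after the start of the stop codon was listed in WT by Tombo, MINES, Nanom6A, m6Anet, ELIGOS and Epinano, all of the tools that need no control. The same 6 tools and xPore listed it in KO. It was the only position of the series with 7 tools in KO, and 1 of 5 that at least 6 tools listed in both libraries, the Ppp1cc coding position being another. Nanocompore, DiffErr and DRUMMER, which compare the libraries, did not list it, and neither did xPore in WT. No other Ppp4c position had more than 2 tools in either library. The 5 positions listed only in KO came from Tombo (3) and m6Anet (2), 4 of them in the coding sequence.

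Ppp5c (ENSMUSG00000003099, chr7:17004640-17027924, minus strand) encodes PP5, which carries its own regulatory tetratricopeptide repeats and binds Hsp90. It had 22 positions, 19 in WT and 21 in KO, and 25 of its 28 WT listings (89.3%, 72.8 to 96.3) were repeated by the same tool. Its GGACT in exon 1, 1473 nt before the stop codon, was listed by Tombo, MINES, Nanom6A and m6Anet in WT and by the same 4 tools in KO. The AGACT 191 nt after the start of the stop codon, at 17004920, was listed by Tombo, MINES and Nanom6A in both libraries. Nanom6A listed 9 Ppp5c positions in WT and 14 in KO, and Tombo 11 and 14.
Ppp5c, coding exon 1, chr7:17027775-17027803, minus strand: cggagggcgagcGGACTgagtgtgctgag

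Ppp6c (ENSMUSG00000026753, chr2:39194354-39226451, minus strand) encodes the catalytic subunit of PP6, which acts on Aurora A kinase in mitosis. Of its 18 positions, 12 were in WT and 13 in KO, with 7 in both, and no tool other than Tombo (9 positions) and Epinano (4) listed a position in WT. The GGACT 214 nt after the start of the stop codon, listed by both of these tools, had the most support in WT and was in no KO list. In KO, Tombo listed 7 positions, Epinano 4, m6Anet 2 and Nanom6A 1. Of the 47 RRACH positions of the transcript 18 were listed, and no position lay within 200 nt of the stop codon, where the transcript has 3 RRACH. Epinano listed 4 positions in each library and repeated none of them.

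**Figure D2:**
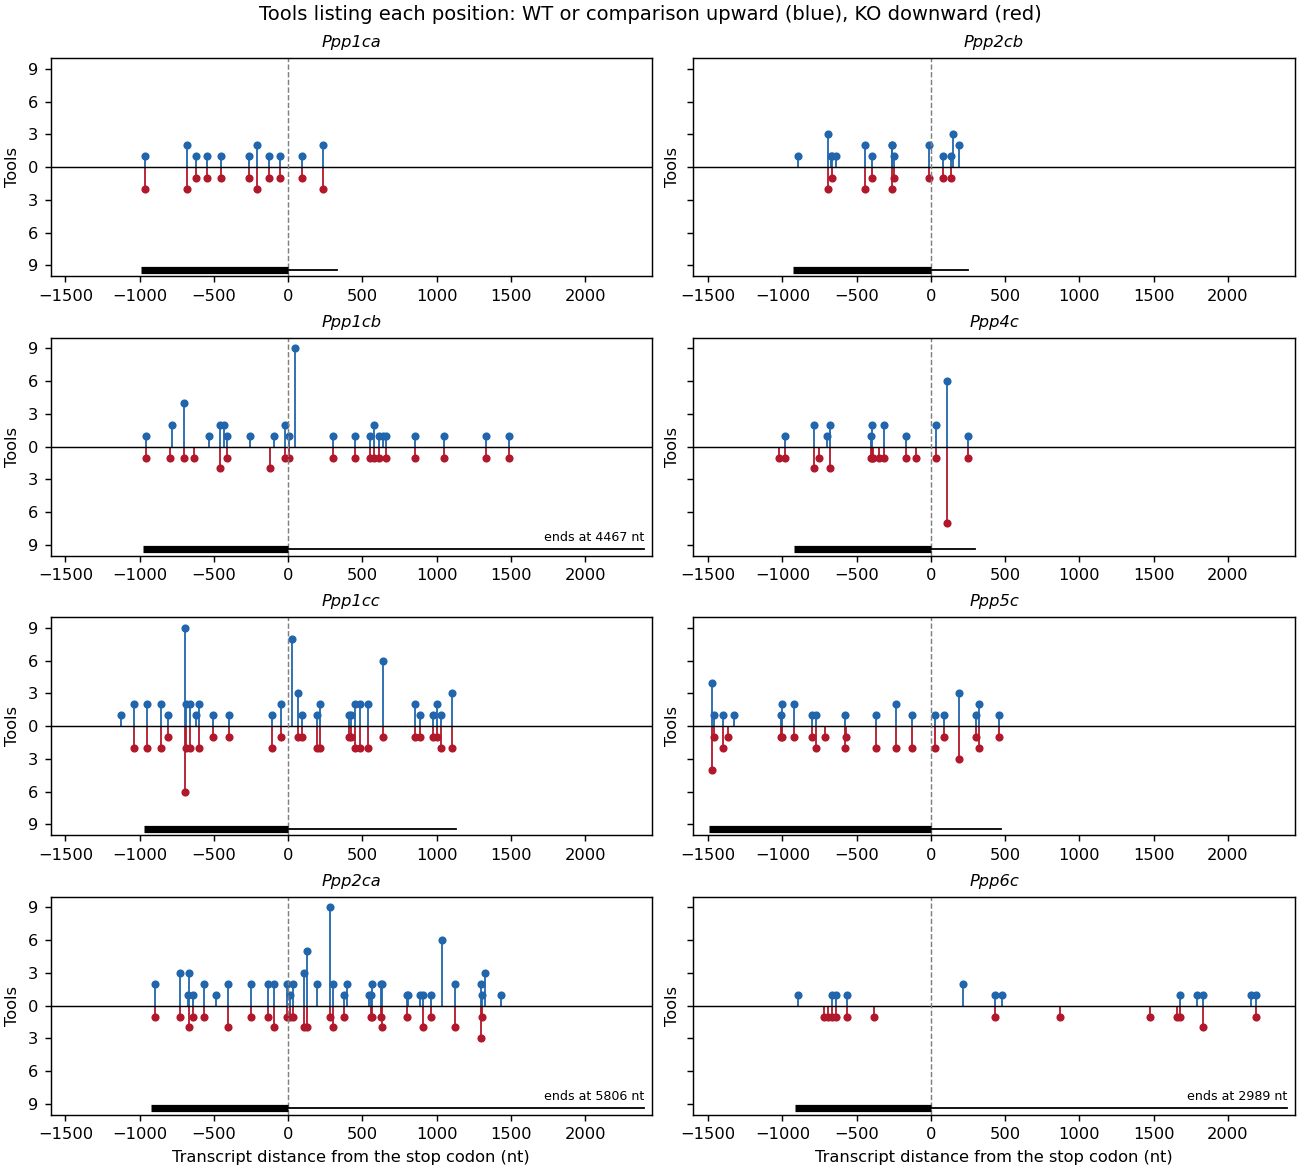
Number of tools listing each phosphatase position against its distance along the transcript, in nt, from the start of the stop codon, with WT or comparison lists upward in blue and KO lists downward in red; the thick bar is the coding sequence and the thin line the 3′ UTR, drawn up to 2400 nt. Ppp1cb, Ppp1cc and Ppp2ca have tall blue stems with short or no red ones in the 3′ UTR, while the coding position of Ppp1cc and the 3′ UTR position of Ppp4c are tall in both directions.

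Tool by tool, the WT positions of the 8 genes came back in KO in different shares. For Tombo, 53 of 69 positions (76.8%, 65.6 to 85.2) were listed again, against 59.7% of all its WT positions. For Nanom6A it was 82 of 114 (71.9%, 63.1 to 79.4) against 65.4%, and for MINES 8 of 10 (80%, 49.0 to 94.3) against 40.2%. These 3 tools, which share the signal assignment of Tombo, had the highest shares among the 7. The share was 13 of 35 for m6Anet (37.1%, 23.2 to 53.7, against 34.4%), 6 of 11 for xPore (54.5%, 28.0 to 78.7, against 24.9%) and 6 of 25 for Epinano (24%, 11.5 to 43.4, against 16.5%). ELIGOS repeated 1 of 7 (14.3%, 2.57 to 51.3, against 11.5%), the Ppp4c position. The share of all positions lay within the interval of the phosphatase genes for Nanom6A, m6Anet, ELIGOS and Epinano, and below it for Tombo, MINES and xPore. Without Ppp1cc and Ppp4c, whose repeated positions had led to the choice of genes, the share was 73.1% (59.7 to 83.2) for Tombo, 71.4% (35.9 to 91.8) for MINES and 33.3% (9.68 to 70.0) for xPore, and the MINES and xPore intervals then held the share of all positions, while the lower bound for Tombo equalled it at the digits printed.

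**Figure D3:**
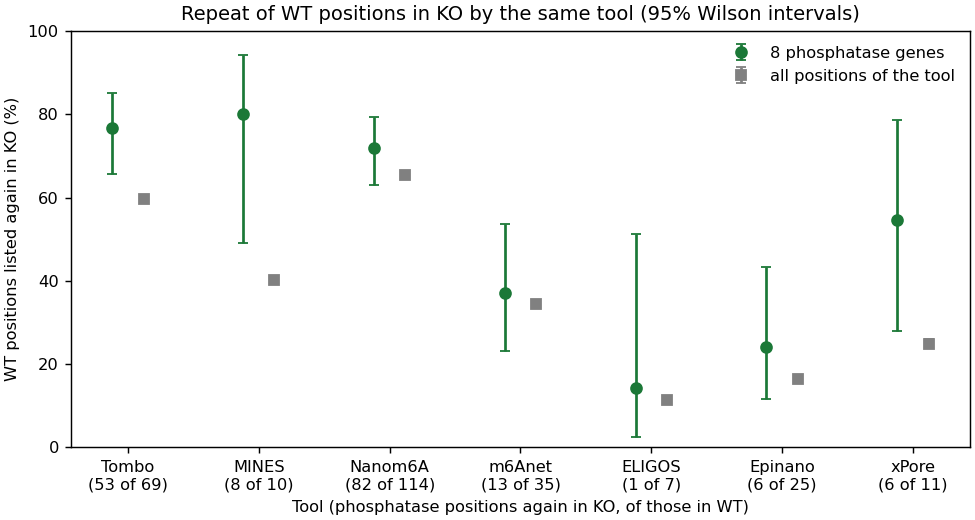
Percent of WT positions that the same tool listed again in KO, for the 8 phosphatase genes (green circles) and for all positions of the tool (grey squares), with 95% Wilson intervals that cover counting error only. The phosphatase share runs from 14.3% (ELIGOS) to 80% (MINES).

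The sizes of the KO and WT lists were also set side by side. Tombo listed 69 phosphatase positions in WT and 69 in KO, a ratio of KO to WT of 1 (95% interval 0.706 to 1.42), with 53 in common. MINES had a ratio of 0.8 (0.274 to 2.25) and Nanom6A of 0.772 (0.578 to 1.03). It was 0.727 (0.254 to 1.99) for xPore and 0.571 (0.313 to 1.02) for m6Anet. Epinano listed 25 positions in WT and 10 in KO (0.4, 0.171 to 0.862). The intervals treat positions as independent, and the lists share positions and reads, so they are no test of WT against KO. Without Ppp1cc and Ppp4c the Epinano ratio was 0.421 (0.159 to 1.01), and with 1 site per line of the list the m6Anet ratio was 0.525 (0.294 to 0.912). The xPore ratio was 0.333 (0.0329 to 1.86) without Ppp1cc and Ppp4c. ELIGOS listed 7 and 1 (0.143, 0.00317 to 1.11), too few for a narrow interval. In each case the interval held the ratio over all positions of the tool, which was 0.905 for Tombo, 0.703 for MINES, 0.831 for Nanom6A, 0.446 for xPore, 0.58 for m6Anet, 0.339 for Epinano and 0.259 for ELIGOS.

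Counted over WT listings, 169 of 271 (62.4%, 56.5 to 67.9) were repeated by the same tool, against 44.5% over the series. These shares pool tools of unlike repeat, and Nanom6A gave 42.1% of the phosphatase listings but 16.6% of all. With the repeat share that each tool had over the whole series, the tool mix of the 8 genes alone would give 51.5%, a value computed after the others were seen. From high to low, the share was 14 of 14 for Ppp1ca, 25 of 28 for Ppp5c, 17 of 21 for Ppp4c and 44 of 62 for Ppp1cc. It was 12 of 24 for Ppp2cb, 35 of 72 for Ppp2ca, 6 of 13 for Ppp6c and 16 of 37 for Ppp1cb. Neighbours in this order had overlapping Wilson intervals, such as 58.7 to 80.8% for Ppp1cc and 31.4 to 68.6% for Ppp2cb. The order is a description, since the genes were chosen on repeated listings, and Ppp1ca had all 11 of its RRACH listed by Nanom6A in both libraries. The tool mix alone would give 64.2% for Ppp1ca, whose listings are from Nanom6A and Tombo, 51.7% for Ppp1cb and 48.7% for Ppp2ca. It would give from 46.4% (Ppp6c) to 54.2% (Ppp2cb) for the 7 genes other than Ppp1ca. Listings of 1 gene share reads and positions, so these intervals are too narrow.

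By place on the transcript, 78 WT or comparison positions lay in coding sequence, 78 in 3′ UTRs and 3 in 5′ UTRs, and the KO lists held 76, 64 and 3. In WT or the comparison the coding share was 49.1% (41.4 to 56.8), against 56.4% over the series, and the 3′ UTR share was 49.1% (41.4 to 56.8), against 40.4%. In KO the coding share was 53.1% (45 to 61.1), against 58.8%, and the 3′ UTR share was 44.8% (36.8 to 52.9), against 37.7%. Within 200 nt of the start of the stop codon were 33 of 159 WT or comparison positions (20.8%, 15.2 to 27.7), against 22.6% of all positions on coding transcripts. For KO positions the share was 29 of 143 (20.3%, 14.5 to 27.6), against 21.2%. The difference between the libraries was smaller than the width of either interval. Of the 8 comparison-list positions, 3 lay within this window (37.5%, 13.7 to 69.4), in Ppp1cb, Ppp1cc and Ppp2ca, against 51.4% of all comparison-list positions, which is inside this interval.

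All 176 positions had RRACH on the genome, against 99.6% over the series, and the paper tested sites in this motif. None was shared with an exon of another gene on the same strand, against 1.40% over the series. The supply of RRACH therefore set the upper limit for each gene. The principal transcripts of the 8 genes hold 330 RRACH, of which 176 (53.3%, 47.9 to 58.6) were listed. In coding sequence 91 of 114 were listed (79.8%), and in 3′ UTRs 81 of 211 (38.4%). The share of RRACH listed over all genes was not computed, so these shares describe the 8 genes alone. The far ends of the longest 3′ UTRs had no listed position. In Ppp1cb the farthest position lay 1491 nt after the start of the stop codon in a 3′ UTR of 4465 nt, with 44 RRACH beyond it. In Ppp2ca it lay at 1437 nt in a 3′ UTR of 5804 nt, with 53 RRACH beyond it. In Ppp1cc the listed positions reached 1104 nt in a 3′ UTR of 1129 nt. Up to the farthest listed position of each gene, 176 of 228 RRACH (77.2%) were listed, with the lowest share in Ppp6c, 18 of 42. This stretch ends on a listed position by its definition, which raises the share. Whether the far ends of the 3′ UTRs of Ppp1cb and Ppp2ca were covered by reads cannot be read from the lists.

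**Figure D4:**
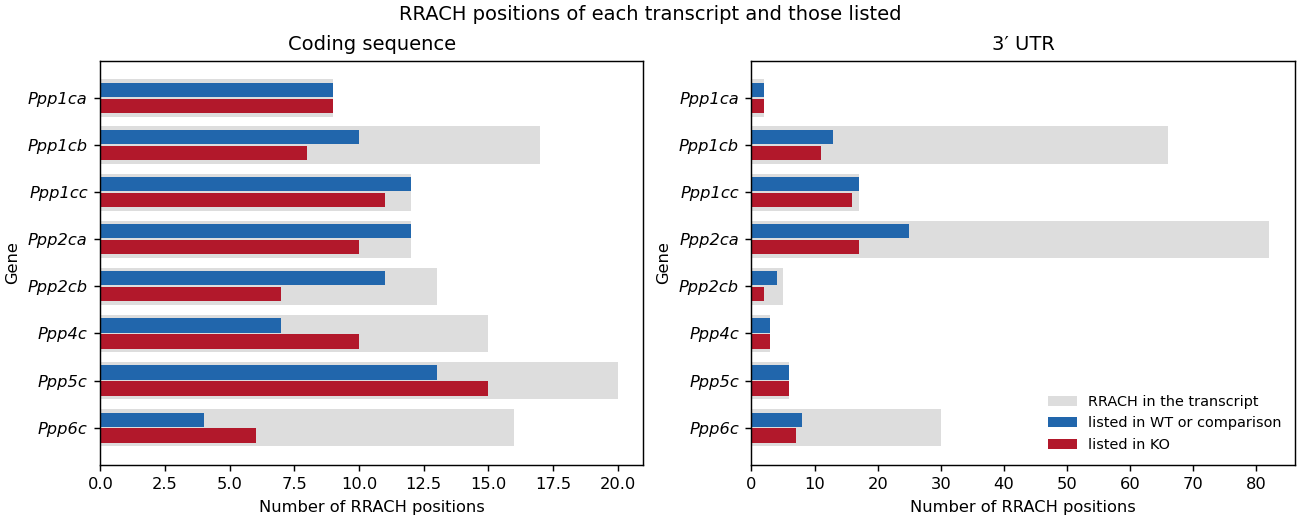
Number of RRACH positions of each principal transcript in the coding sequence (left) and the 3′ UTR (right) as grey bars, with those listed in WT or the comparison in blue and in KO in red. Every coding RRACH of Ppp1ca, Ppp1cc and Ppp2ca was listed in WT, while most of the 66 and 82 RRACH in the 3′ UTRs of Ppp1cb and Ppp2ca were in no list.

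GGACT made up 12.6% of the WT or comparison positions (8.29 to 18.6), against 11.9% over the series, and 10.5% of the KO positions (6.46 to 16.6), against 9.69%. Its share among phosphatase positions was thus near that of the series in both libraries. GGACT was listed in WT or the comparison at 20 of its 21 occurrences up to the farthest listed position of each gene. The whole transcripts hold 22. The other 11 5-mers ranged from 7 of 16 (AAACC) to 18 of 20 (AGACC) in the same stretch. That stretch is set by the listings, and the like shares over the series were not computed. Of the 8 comparison-list positions 4 had GGACT (50%, 21.5 to 78.5), against 33.9% over the series, and the other 4 each had a 5-mer of their own. In KO, GGACT was listed at 15 positions and GAACT at 19, and 5 of the 17 positions listed only in KO were GAACT (29.4%, 13.3 to 53.1), against 6.83% over the series, a 5-mer picked out after its count was seen. Single-tool positions were fewer than in the series, with 88 of 159 (55.3%) in 1 WT or comparison tool, against 65.3%. A run of at least 5 equal bases within 10 bp was near 15 of 176 positions (8.52%, 5.23 to 13.6), against 7.03% over the series. It was near 11 of 123 that a tool repeated in KO (8.94%, against 6.97%) and 4 of 33 WT or comparison positions that were in no KO list (12.1%, 4.82 to 27.3, against 6.83%).

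The coding sequences of the 8 genes are related, so listed positions can be set beside the aligned bases of their paralogs. The Ppp1cc coding position is the second base of codon 92, in the stretch that encodes the conserved metal-binding signature of the catalytic core. Read from the principal transcripts and aligned by codon, this codon is GAC in Ppp1cc, Ppp2ca, Ppp2cb and Ppp4c, where it completes an RRACH, and the synonymous GAT in Ppp1ca, Ppp1cb, Ppp5c and Ppp6c, where it does not. Of the coding RRACH of these genes, 12 of 12 in Ppp1cc and in Ppp2ca, 11 of 13 in Ppp2cb and 7 of 15 in Ppp4c were listed in WT or the comparison, so a listing at this codon is not particular to it. All 4 genes with GAC had the aligned position listed, in Ppp1cc by 9 tools in WT or the comparison, and in WT by Tombo and MINES in Ppp4c and by Nanom6A in Ppp2ca and Ppp2cb. In KO it was listed by 6 tools in Ppp1cc, by the same 2 in Ppp4c and by none in Ppp2ca and Ppp2cb. The windows are shown for the 6 genes where they lie within 1 exon, with the aligned 5-mer in capitals; those of Ppp5c and Ppp6c cross a splice junction.
Ppp1cc, codon 92, chr5:122168992-122169020, plus strand: tttgtttctcggGGACTatgtggacaggg
Ppp1ca, codon 92, chr19:4193095-4193123, plus strand: cctcttcttgggGGATTatgtagatcggg
Ppp1cb, codon 91, chr5:32480763-32480791, plus strand: tcttttcttaggAGATTatgtggacagag
Ppp2ca, codon 85, chr11:52113257-52113285, plus strand: cctgtttatgggAGACTatgtggacagag
Ppp2cb, codon 85, chr8:33610792-33610820, plus strand: cctattcatgggGGACTatgtagacagag
Ppp4c, codon 82, chr7:126788161-126788189, minus strand: cctcttcatgggAGACTttgtggaccgtg

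The windows differ from that of Ppp1cc at 6 bases of 29 in Ppp2ca, at 8 in Ppp1cb and Ppp2cb and at 10 in Ppp1ca and Ppp4c. The GGACT 5-mer itself is the same in Ppp1cc, with 9 tools, and in Ppp2cb, with Nanom6A alone. Downstream in the same window, at another RRACH shared by 7 of the 8 genes, 5 genes were listed in WT, with 4 tools in Ppp1cb (the GGACA at 32480786), 3 in Ppp2ca and 2 in Ppp1cc.

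Between the closest paralogs, Ppp2ca and Ppp2cb (81.7% identical over 927 aligned coding bases), 6 RRACH were aligned and all 6 were listed in WT in both genes. Ppp1ca and Ppp1cc (78.5%) had 3 aligned RRACH, all listed in both. These counts follow from how complete the listings were, 12 of 12 coding RRACH in Ppp2ca and Ppp1cc, 11 of 13 in Ppp2cb and 9 of 9 in Ppp1ca, and show nothing about aligned positions as such. Ppp1cb shared 6 with Ppp1ca and 6 with Ppp1cc, and in each pair 2 were listed in WT in both genes and 4 in 1 gene. Over the 8 coding sequences, 58 aligned places had at least 1 listed position, of which 38 were listed in 1 gene, 14 in 2, 2 in 3, 1 in 4 and 3 in 5. The longest run of identical bases between these 4 pairs was 20 to 24 nt. In the 3′ UTRs, the GGACC of Ppp2ca at 126 nt and that of Ppp2cb at 146 nt aligned with each other, with 9 identical bases from the start of the 5-mer on. The position had 5 tools in WT or the comparison and 2 in KO in Ppp2ca, and 3 tools in WT and none in KO in Ppp2cb.
Ppp2ca, 3′ UTR, chr11:52122084-52122112, plus strand: ttgttttcacacGGACCaaaagatgtgcc
Ppp2cb, 3′ UTR, chr8:33619324-33619352, plus strand: aaaacacatcatGGACCaaaacgtgccat

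A list of 45 further genes was taken, for regulatory, scaffold and inhibitor subunits, for modifiers of PP2A and for calcineurin, whose catalytic subunits are among them. Of these, 42 had a listed position, with a median of 19 over all 45, and 38 had one in WT or the comparison. A comparison list held positions of 8 of the 42 (19.0%), against 14.6% of all genes with positions. The largest numbers were 4 in Ppp2r2d and 3 in Ppp2r2a, B-type regulatory subunits of PP2A, 3 in Ppp4r2, a regulatory subunit of PP4, and 2 in Ppp1r2, an inhibitor of PP1. At least 4 tools in both libraries listed 3 positions of Set, an inhibitor of PP2A, 1 of Ptpa, an activator of PP2A, and 1 of Arpp19, another PP2A inhibitor, genes named after their values were seen. They are 3 of the 42 genes (7.14%), against 3.39% of all genes with positions. Positions of Ppp2r3a, Ppp2r5b, Strn and Ppp6r2 were in KO lists only, and the 11 positions of Ppp1r10 were in WT or comparison lists only. These genes too were named after their values were seen. The share of all genes with positions on 1 side only was not computed. Over the series, 29.2% of KO positions had no WT or comparison listing.

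The labels of the libraries were checked on the lists. In Mettl3, the replaced exons 5 to 7 had 2 positions in WT or comparison lists and 0 in KO, exons 1 to 4, which were not replaced, had 7 and 0, and exons 8 to 11 had 4 and 5. All 9 marker genes of embryonic stem cells that were looked up, Pou5f1 and Nanog among them, had listed positions. Of 6 fibroblast or feeder markers, Thy1 had 3 positions in WT and 1 in KO and Col1a1 had 3, in KO only, while of 6 lineage markers Sox17 had 12 and Nes 3, all in WT or comparison lists and 0 in KO. The lists do not give levels, so the share of other cells was not tested.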

How the data were processed

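Native poly(A) RNA of both libraries was sequenced with a nanopore direct RNA kit. The authors basecalled the reads with Guppy, aligned them to the GENCODE mouse transcriptome with Minimap2, ran the tools and converted transcript to genome coordinates (mm10 per the labels). The deposited values are of no numeric unit: positions, strands and names only, called above cut-offs the authors chose by F1 score, with a minimum number of reads that was higher for m6Anet. The cut-off values were not used here, and the depth is unknown.

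From these lists, unique positions were placed on GENCODE M21 exons of GRCm38, and 99.95% of 16356 listed transcript identifiers were found there without version. Distances to the stop codon and RRACH counts used 1 principal transcript per gene, which held all 176 positions. Coding sequences were aligned by codon with MAFFT 7.526. Shares have Wilson intervals, and ratios of KO to WT have intervals from the exact binomial interval. Placement and intervals were tested on simulated data. No columns of other samples were used (0).

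The genes, lists and rules were chosen with earlier results of these data known. Sites were named by rule: per gene those with most tools in WT (at most 2), those that at least 4 tools listed in both libraries, those in a comparison list, those with at least 5 tools in WT and none in KO, and the bases aligned with the most repeated one. Some others were named outside these rules, after their values were seen. Among them are 4192245 and 4195327 in Ppp1ca, 32480786 in Ppp1cb and 17004920 in Ppp5c. Python 3.11.15, numpy 2.4.6, pandas 2.3.3, scipy 1.17.1, pysam 0.24.0 and matplotlib 3.10.9 were used.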

Additional observations from a re-analysis of the deposited data

How the results depend on the processing

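Of 65 recomputed values, 60 stayed within 1.5 times the count or within the 95% interval of the share or ratio. All counts were the same when positions were limited to exons of a single gene, to listed names of the phosphatase genes or to RRACH 5-mers. The first and last of these limits could not change any value, since all 176 positions had RRACH and none was shared with another gene. The 65 values include them, so the tally overstates how far the results were tested. Without Nanom6A, the KO lists held 94 phosphatase positions in place of 143. Without Ppp1cc and Ppp4c, ELIGOS repeated none of its WT positions in KO (0%), and its ratio of KO to WT was 0. The share of WT or comparison positions near the stop codon was 11.9% within 100 nt and 35.8% within 400 nt, beside 12.6% and 38.8% of all positions. At least 3 tools in both libraries gave 4 positions in place of 3, matching within 5 bp gave 3, and leaving out Tombo or Nanom6A gave 2. No paired analysis was possible because each condition had 1 library, and no replicate could be left out. Without coverage, positions absent from a list cannot be told apart from positions without reads.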

Other observations

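The listed transcripts also differed within genes. Lines for Ppp1cc named ENSMUST00000102528 at 18 positions, ENSMUST00000128309 at 11 and ENSMUST00000086294 at 9, and lines for Ppp4c named ENSMUST00000206570 at 11 positions and ENSMUST00000032936 at 8. The other 6 genes were each listed with 1 transcript. The coding GGACT of Ppp1cc was listed on 2 transcripts, and so was the 3′ UTR GGACT of Ppp4c. Nanom6A names genes in place of transcripts and is not in these counts.

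All 3 positions that at least 4 tools listed in both libraries had GGACT, in coding exon 3 of 7 (Ppp1cc), coding exon 1 of 13 (Ppp5c) and the last exon of 8 (Ppp4c). The 3 positions with at least 5 tools in WT or the comparison and none in KO all lay in last exons, with GGACA in Ppp1cb and GGACT in Ppp1cc and Ppp2ca. Both sets were picked by their listings, and the Ppp1cc and Ppp4c positions of the first led to the choice of genes. The shares of GGACT and of last exons among such positions of the series were not computed. Among all positions with at least 5 tools in WT or the comparison, 44.7% had GGACT. These features are therefore given as a description.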
